A study of Schmidtea mediterranea with 24 samples.

Results

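Planarian tail and body sections held 649 beads that were rich in 1 transcript, SMED30005324, and these beads lay in strips and clumps near the outline of the tissue. The beads come from Slide-seqV2, in which a tissue section is laid on a puck of barcoded beads and each bead captures the messenger RNA above it, counted as unique molecular identifiers (UMIs). They were chosen by the transcript itself: of 113310 beads in the files, 48828 had 200 or more UMIs, and a bead was taken as rich when it held 3 or more UMIs of SMED30005324. In the 48 h block the rich beads numbered 248 in section 1 and 127 in section 2, and in the 6 h block they numbered 137 in each section. Beads with 0 UMIs of the transcript, 47454 in all, served as the comparison, and 725 beads with 1 or 2 UMIs were kept on neither side.

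All animals were wildtype Schmidtea mediterranea, a freshwater flatworm that regrows missing body parts from a pool of dividing stem cells. For each of 2 times after amputation, 6 h and 48 h, a block of 8 to 9 cut tails placed around 1 intact worm was frozen, and 2 neighbouring sections were taken from its middle. The sections of a block therefore share animals and are not biological replicates, a block mixes cut tails with intact tissue, and time and block cannot be told apart. The series also holds 18 bulk libraries of cells sorted by an mmp-1 probe: mmp-1+ and mmp-1- cells from tail fragments at 6 h and 48 h and from whole intact worms, with 3 replicates in each of the 6 groups, 100 worms per replicate, starved for 11 days, and 1000 fixed cells per library. The mmp-1 gene encodes a matrix metalloproteinase, a class of secreted enzymes that cut the matrix around cells. Intact libraries came from whole worms and the others from tails, so amputation and body region cannot be told apart.

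The margin of a planarian is a specialised strip of body wall: an epithelium over muscle, with the openings of gland cells whose secretions help the animal to stick and glide. A bead is not a cell. It can hold RNA from several neighbouring cells of different types, so a gene that shares the rich beads with SMED30005324 may come from the same cell or from one beside it. The files give transcript identifiers without gene names, and no name, function or cell type is attached to any of them here.

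Where 4 section values follow each other below, they belong to 48 h sections 1 and 2 and then to 6 h sections 1 and 2. Sequencing depth was 21234845 and 18695274 UMIs in the 48 h sections and 10863941 and 13792997 UMIs in the 6 h sections. Pairs of sections shared 3 to 5 bead barcodes. Gene counts per sorted library lay between 53.0 and 66.1, in units of 1e6. Between 7.37% and 9.21% of reads mapped to several places in the mmp-1+ group and between 5.67% and 6.28% in the mmp-1- group, and the part of this in the results on sorted cells was not tested.

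SMED30005324 was concentrated on few beads. Rich beads were 1.78% and 1.06% of all beads with 200 or more UMIs in the 48 h sections and 1.48% and 1.00% in the 6 h sections. They carried 96.0% and 91.0% of the transcript's UMIs at 48 h, and 95.8% and 91.9% at 6 h. The median rich bead held 17 and 11 UMIs of the transcript in the 48 h sections and 25 and 15 UMIs in the 6 h sections, with maxima of 497, 231, 431 and 364 UMIs in the same order. These levels are what selected the beads and are given as a description.

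Rich beads lay closer to the edge of the tissue than beads with 0. SMED30005324 had been chosen for its place at the rim, so these distances are a description of that choice. Distance was counted in bead spacings, the median gap between neighbouring beads, to the nearest puck position outside a tissue outline drawn from local UMI density. The median distance of rich beads was 3.33 and 3.26 spacings in the 48 h sections, against 5.76 and 4.87 spacings for beads with 0. In the 6 h sections it was 2.90 and 3.12 spacings for rich beads, against 5.18 and 4.89 spacings for beads with 0. More than 10 spacings inside the tissue there were 3, 0, 1 and 1 rich beads in the 4 sections, while 21.6%, 11.2%, 16.5% and 14.7% of the beads with 0 lay that deep. The size of the gap depends on how the outline is drawn: with a tighter outline, from the 10 nearest positions in place of 20, the medians for rich beads minus beads with 0 differed by -0.547, -0.329, -0.744 and -0.296 spacings, with rich beads still the nearer ones in each section.

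**Figure D1:**
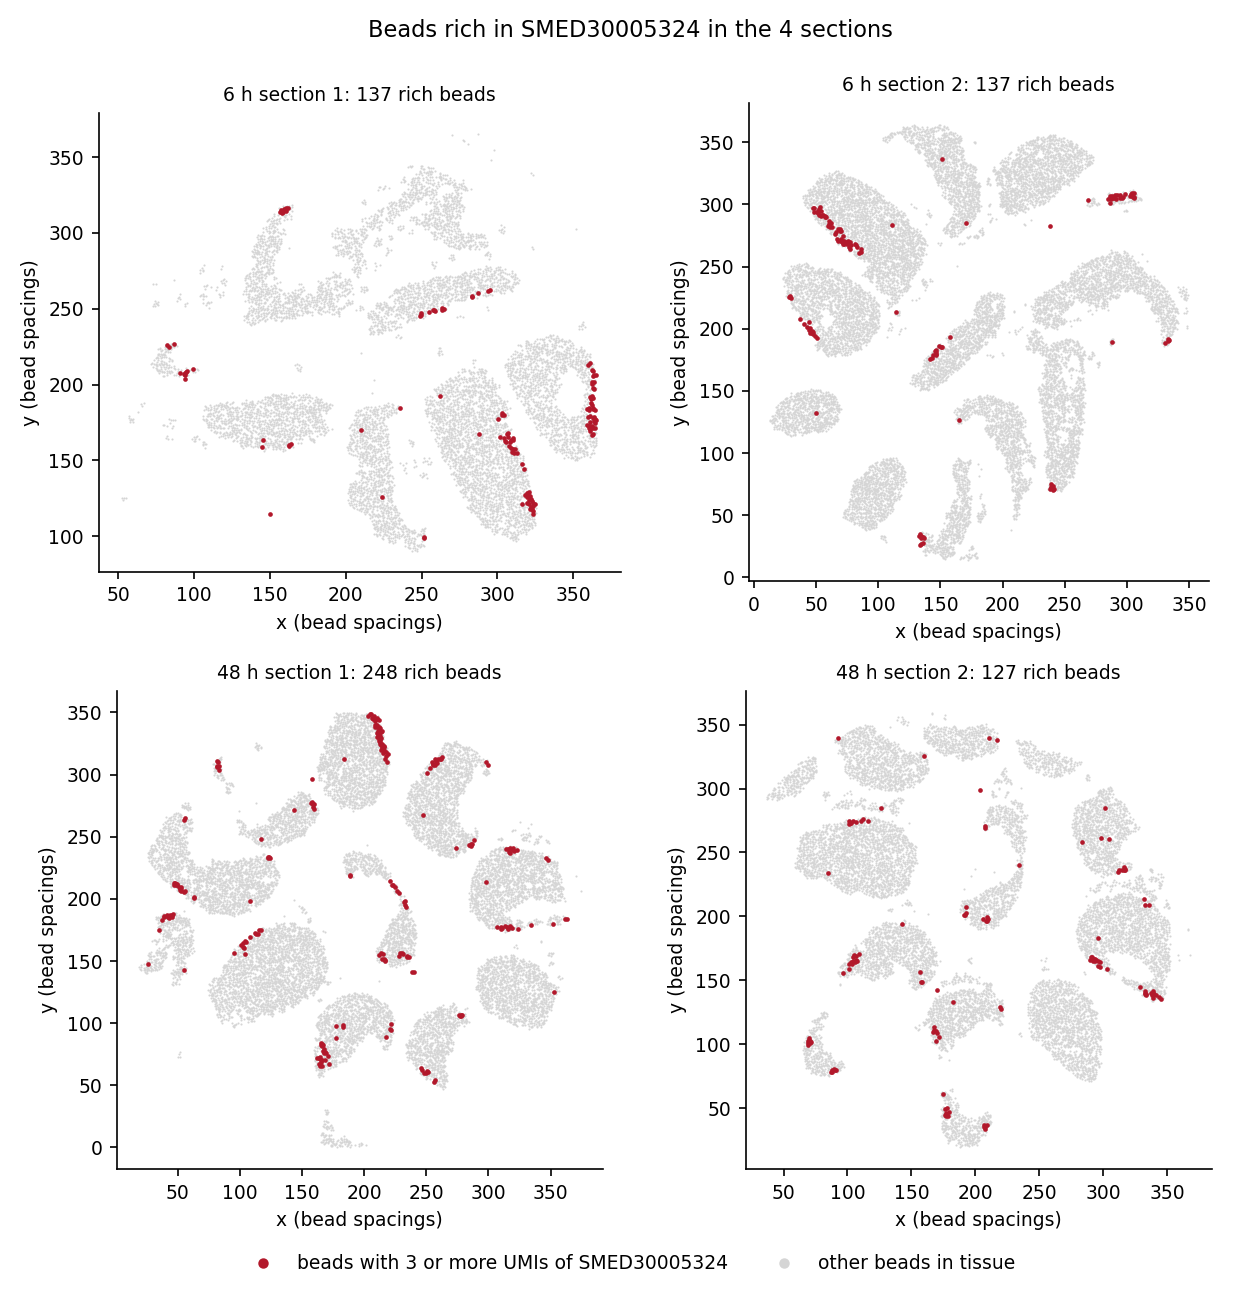
Positions of beads in tissue on the 4 pucks, in bead spacings on both axes, with beads rich in SMED30005324 in red and other beads in tissue in grey. The 137, 137, 248 and 127 rich beads of the panels form strips and clumps along parts of the outline of the pieces, and long stretches of the outline have none.

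The transcript did not mark the whole rim. Within the distance from the edge that held 90% of the rich beads, 3.59% and 1.78% of beads were rich in the 48 h sections and 3.48% and 2.07% in the 6 h sections, and 51.0%, 64.4%, 46.5% and 53.1% of all beads with 0 in tissue lay in that same band. The label of an edge tissue describes where the rich beads lie, and most beads at the edge lacked the transcript. The rich beads were clustered: the nearest other rich bead was a median of 1.22, 1.53, 1.19 and 1.29 spacings away. Groups of 5 or more linked beads held 64.1%, 64.6%, 65.0% and 73.0% of them. The largest group had 42 beads, in 48 h section 1. Rich beads occurred in 12 of 12, 10 of 13, 7 of 8 and 9 of 11 separate pieces of tissue, and the piece with the most held 21.0%, 25.2%, 33.6% and 40.1% of a section's rich beads. A piece was a group of 100 or more tissue beads linked within 3 spacings, and need not be 1 animal. The sources used here do not say which piece was the intact worm.

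**Figure D2:**
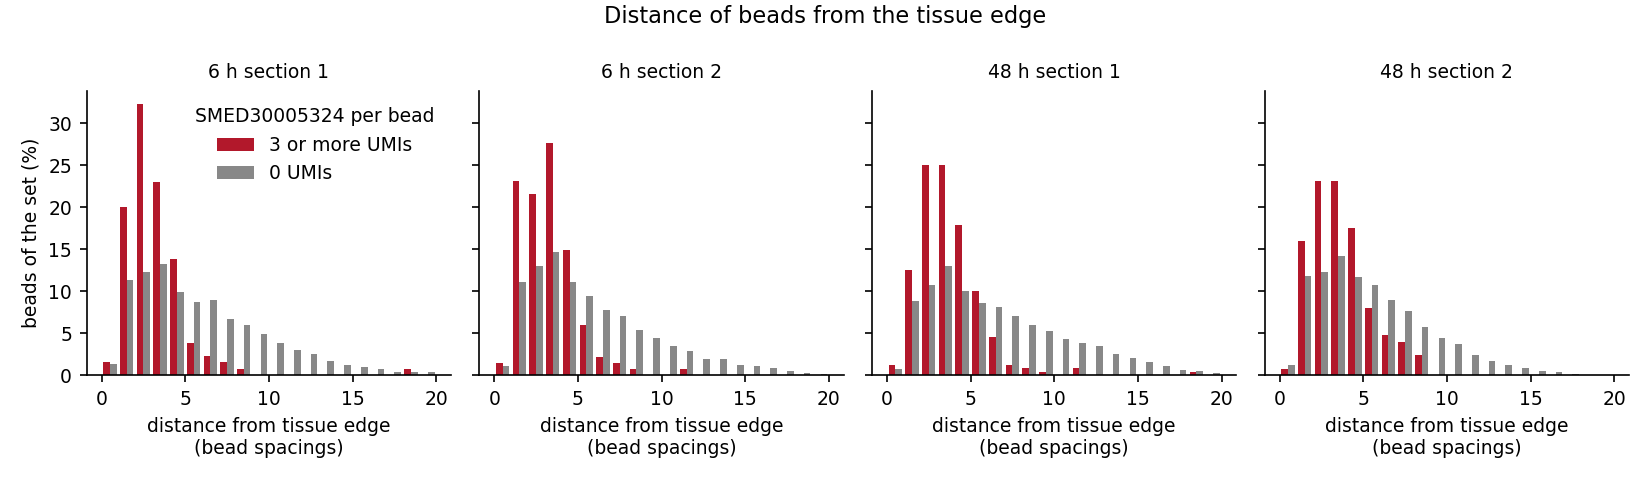
Share of each set of beads (percent, bars) by distance from the tissue edge in bead spacings, for beads with 3 or more UMIs of SMED30005324 (red) and with 0 UMIs (grey), 1 panel per section. Rich beads lie mostly in the first few spacings in each section, with medians of 2.90 to 3.33, and the beads with 0 reach further inwards.

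To find what else these beads contained, UMIs were summed over rich beads and over beads with 0 in each section, without SMED30005324, and scaled to the side's total (CPM, UMIs in 1e6). A ratio was taken after adding 0.5 UMI per side. Of 10941 genes with 200 or more UMIs in all, 147 (1.34%) had a ratio of 2 or more in each of the 4 sections. Another 243 (2.22%) had a ratio of 0.5 or less in each. The first are called edge-shared and the second edge-poor below, names that refer to the rich beads and not to all beads at the edge. Sections of 1 block are not replicates, so no test was made, and intervals give counting error only. The weakest edge-shared genes rest on few UMIs: the interval excluded 1 in all 4 sections for 53 of the 147 genes, in 3 for 27, in 2 for 19, in 1 for 24 and in none for 24. Among the 3698 genes expected to give 3 or more UMIs on the rich side of each section, 22 (0.595%) were edge-shared. With no UMI added to either side the number of edge-shared genes was 96. Some edge-shared genes passed in a section only through the added 0.5 UMI. SMED30015573 and SMED30007523 had 0 UMIs on rich beads in 6 h section 2, against 16 and 23 UMIs on beads with 0. SMED30012973 and SMED30001467 had 0 UMIs on rich beads in 6 h section 1, against 15 UMIs each on beads with 0.

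**Figure D3:**
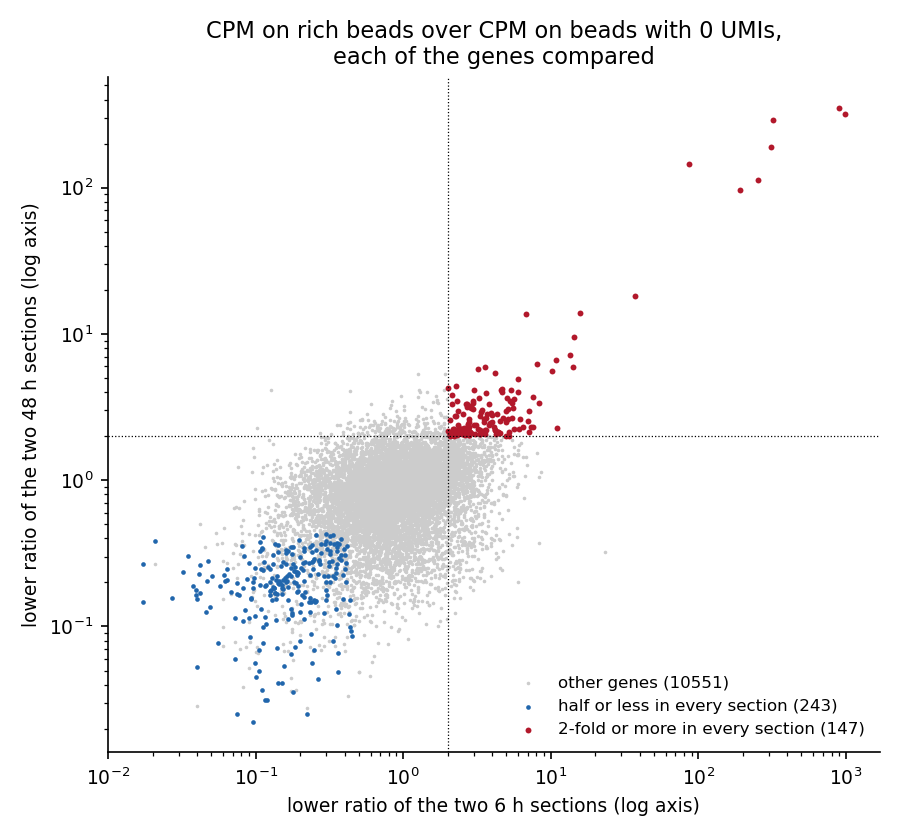
Ratio of CPM on rich beads to CPM on beads with 0, 1 point per gene, with the lower of the ratios in the 6 h sections on the horizontal axis and the lower of those in the 48 h sections on the vertical axis, both logarithmic, and dotted lines at 2-fold. The 147 edge-shared genes are red and the 243 edge-poor genes blue, and 7 red points stand far above the rest at 86.1-fold or more.

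The edge-shared genes fell into 3 ranges by their lowest ratio. At the top, 7 genes were 86.1-fold or more higher on rich beads in each section. Another 2 genes had lowest ratios of 13.89 and 18.02. The other 138 lay between 2.00 and 9.53, and the genes just inside and just outside the 2-fold limit both had a lowest ratio of 2.00. Summed over the 7 genes, rich beads had 6189 and 3995 CPM in the 48 h sections, against 25.2 and 22.6 CPM on beads with 0. In the 6 h sections rich beads had 7505 and 7952 CPM, against 14.2 and 16.8 CPM on beads with 0. All 147 genes together made up 29594 and 21944 CPM on rich beads at 48 h, against 6655 and 5573 CPM on beads with 0, and 25430 and 26818 CPM on rich beads at 6 h, against 3964 and 3885 CPM on beads with 0.

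SMED30026600 had the highest value for the lowest of a gene's 4 ratios, 352. It gave 643 and 239 UMIs on rich beads in the 48 h sections, against 55 and 44 UMIs on the far larger number of beads with 0, and 432 and 352 UMIs on rich beads in the 6 h sections, against 20 and 38 UMIs on beads with 0. Its level was 1510 and 915 CPM on rich beads at 48 h, against 2.86 and 2.57 CPM on beads with 0, a ratio of 523 (95% exact interval 400 to 708) in section 1 and 352 (257 to 502) in section 2. At 6 h it was 3133 and 2810 CPM on rich beads, against 2.08 and 3.11 CPM on beads with 0, a ratio of 1469 (961 to 2486) in section 1 and 893 (646 to 1299) in section 2. It was seen on 64.1%, 65.4%, 73.0% and 67.2% of rich beads and on 0.358%, 0.343%, 0.222% and 0.254% of beads with 0. On the rich beads of every piece that held 10 or more of them, its level was above that on the section's beads with 0. These were 9, 8, 4 and 4 pieces in the sections, and the gene was chosen by this contrast on the same beads.

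SMED30009723 followed the same pattern, with ratios of 414 (293 to 621) and 320 (196 to 577) at 48 h and of 1194 (573 to 3584) and 981 (520 to 2321) at 6 h. It was on 48.4%, 33.9%, 41.6% and 35.0% of rich beads and on 0.231%, 0.154%, 0.0666% and 0.0674% of beads with 0. On rich beads the UMIs of SMED30026600 and of SMED30005324 ranked alike. Spearman's rho was 0.73 over 248 beads in 48 h section 1, 0.60 over 127 beads in 48 h section 2 and 0.80 over 137 beads in each 6 h section. The beads of a section share its library and differ in depth. SMED30026600 had the highest rho of the 7 genes in each section. The lowest was 0.35 and 0.14 in the 48 h sections and 0.16 and 0.20 in the 6 h sections. The 7 genes were not alike in how widely they occurred. SMED30027157, singled out after its values were seen, was on 18.5%, 7.09%, 1.46% and 3.65% of rich beads, while the other 6 genes were each on 14.6% to 73.0%.

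The 7 genes were chosen by the contrast of rich beads with beads with 0, so their levels along the amount of SMED30005324 on a bead are a description of that choice. A UMI of any of the 7 was present on 2.53%, 2.37%, 1.22% and 1.33% of beads with 0 UMIs of SMED30005324. At 1 UMI the share was 21.0%, 16.2%, 10.4% and 17.2%, at 3 to 9 UMIs it was 77.1%, 77.0%, 74.4% and 69.8%, and at 50 or more it was 100%, 100%, 100% and 96.4%. Among beads with 0, those under 2 spacings from a rich bead had 320, 285, 130 and 297 CPM of the 7 genes, and those 20 or more spacings away had 10.7, 8.18, 9.23 and 10.2 CPM. None of these beads was rich, but all were part of the side with 0. Of all genes, 184 (1.68%) were at least 2-fold higher on beads with 0 under 2 spacings from a rich bead than on beads with 0 beyond 10 spacings, in each section. Of the 147 edge-shared genes 45 were, among them all 7 of the top range and 28 of the 53 with intervals above 1. Of the 243 edge-poor genes, 111 were at 0.5 times or less near rich beads, as were 167 of all 10941 genes. Spread of RNA to neighbouring beads and continuity of the tissue cannot be told apart in these values.

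**Figure D4:**
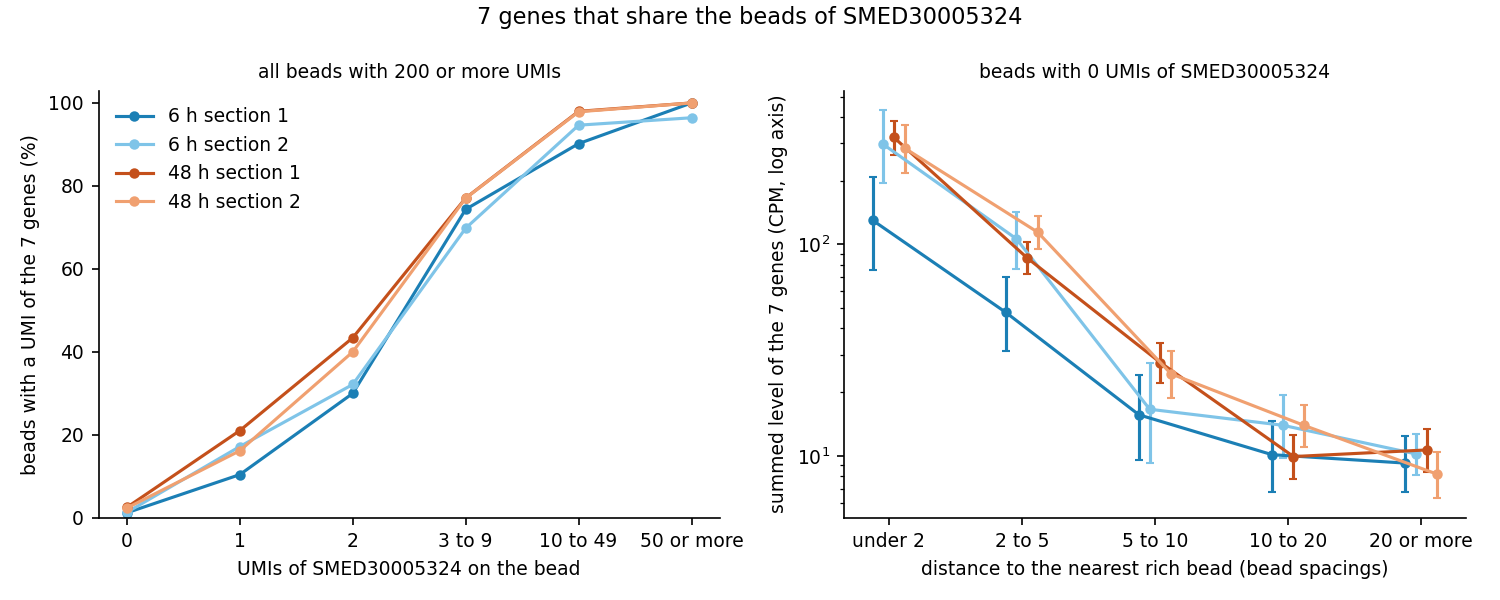
Left, the share of beads (percent) with a UMI of any of the 7 genes, by UMIs of SMED30005324 on the bead. Right, the summed level of the 7 genes (CPM, log axis, bars for exact 95% counting intervals) on beads with 0 UMIs of SMED30005324, by distance to the nearest rich bead in bead spacings, with 1 line per section in both panels: the share climbs to 96.4% or more, and the level drops with distance to between 8.18 and 10.7 CPM.

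Rich beads were deeper than beads with 0, and both depth and position touch the weaker genes. Their median was 1432 and 1321 UMIs per bead at 48 h, against 929 and 888 UMIs on beads with 0, and 856 and 730 UMIs at 6 h, against 707 and 620 UMIs on beads with 0. With the beads with 0 weighted to the depths of the rich beads, 136 of the 147 genes stayed at 2-fold or more in each section, including the 7. With them weighted to the edge distances of the rich beads, 89 stayed, again including the 7. Scaling by TMM, which aligns most genes between the sides, shifted log2 ratios by -0.24 and -0.37 at 48 h and by -0.62 and -0.73 at 6 h, and then 53 genes were edge-shared and 472 edge-poor. The median gene was 1.04-fold to 1.22-fold higher on rich beads.

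The 2 blocks were compared as separate collections of animals. In the 48 h block, 360 genes (3.29%) had a ratio of 2 or more in both sections, and in the 6 h block 1165 genes (10.6%) did. The 147 genes in both lists are 40.8% of the 48 h list and 12.6% of the 6 h list, where 10.6% and 3.29% of all genes reached the limit in the other block. The rich side had 425735 and 261305 UMIs in the 48 h sections and 137906 and 125250 UMIs in the 6 h sections. With 3 or more UMIs expected on the rich side, 22 of 135 genes of the 6 h list (16.3%) were also in the 48 h list, against 1.05% of all genes.

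Few of these genes passed a 2-fold limit between the rich beads of the 2 times. Both 48 h sections were at least 2-fold above both 6 h sections for 1 of the 147 genes and at 0.5 times or less for another, where the same held for 452 (4.13%) and 287 (2.62%) of all genes. The first was SMED30026598, with 10 and 7 UMIs on rich beads at 48 h and 1 and 1 UMIs at 6 h. The second was SMED30017992, with 3 and 2 UMIs at 48 h and 3 and 3 UMIs at 6 h. None of the 7 genes passed either limit, and the median of their log2 ratios of 48 h over 6 h was -0.56. The 147 genes were chosen by their ratios at both times, which leaves out genes high on rich beads at 1 time only. The share of all genes is therefore not a like comparison. With 1 block at each time no difference between the times could be tested.

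The rich beads were also set beside beads rich in 3 other transcripts. SMED30019930, SMED30030799 and SMED30019357 were all lower on rich beads, with ratios from 0.149 to 0.390. At 48 h SMED30019930 had 611 and 631 CPM on rich beads, against 1827 and 2463 CPM on beads with 0. At 6 h it had 587 and 1820 CPM on rich beads, against 3962 and 7864 CPM on beads with 0. The same procedure for beads rich in each of these transcripts gave lists of 148 genes (1.45% of those compared), 587 genes (5.72%) and 151 genes (1.48%). Of the edge-shared genes compared there, 2 of 127 (1.57%), 0 of 125 and 2 of 124 (1.61%) were in these lists, shares near or below those of all genes. Of the 242 edge-poor genes compared there, 40 (16.5%), 179 (74.0%) and 42 (17.4%) were in them, which is 27.0%, 30.5% and 27.8% of the lists. These lists come from the same sections, and all 3 transcripts were themselves lower on rich beads.

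Edge-poor genes took up less of the RNA on rich beads. Together they gave 29737 and 35587 CPM on rich beads at 48 h, against 111516 and 114545 CPM on beads with 0, and 26395 and 40327 CPM on rich beads at 6 h, against 123529 and 160760 CPM on beads with 0. The interval lay below 1 in all 4 sections for 153 of the 243. By the highest of a gene's 4 ratios, SMED30030027 was the lowest, with 0 and 0 UMIs on rich beads at 48 h, against 1010 and 742 UMIs on beads with 0, which is at least 7.46-fold and 3.78-fold lower at a floor of 3 UMIs per section. At 6 h it had 2 and 2 UMIs on rich beads, against 1806 and 1944 UMIs on beads with 0, with ratios of 0.0963 (0.00933 to 0.279) and 0.125 (0.0121 to 0.363). SMED30013245 had 0 and 0 UMIs on rich beads at 48 h, against 199 and 254 UMIs on beads with 0. At the same floor this is 1.47-fold and 1.29-fold lower, with intervals of the ratio up to 0.845 and 0.958. Its ratios at 6 h were 0.165 and 0.179, each from 1 UMI on rich beads, and its highest ratio was 1.53 when beads with 2 UMIs of SMED30005324 also counted as rich.

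SMED30005324 was present in every sorted library, with TMM-scaled levels that varied 3.62-fold between 1929 and 6978 CPM. The mmp-1+ replicates stood at 3374, 3222 and 2233 CPM when intact, 3457, 3167 and 2991 CPM after 6 h, and 4097, 2735 and 2992 CPM after 48 h. The mmp-1- replicates stood at 6220, 3909 and 1929 CPM when intact, 4144, 5892 and 4420 CPM after 6 h, and 4634, 6978 and 3809 CPM after 48 h. The mmp-1+ and mmp-1- groups overlapped in intact worms and at 48 h and did not at 6 h. Averaged over the times, mmp-1+ cells had a log2 fold change of -0.56 against mmp-1- cells (SE 0.17, adjusted p = 0.0246 by edgeR). That call rested on single libraries: without mmp-1- 48 h replicate 2, mmp-1+ 48 h replicate 2, mmp-1- 6 h replicate 2, mmp-1- intact replicate 1 or mmp-1+ intact replicate 3 it no longer passed, and over the alternatives, by edgeR, DESeq2 or limma, the adjusted p ranged from 0.000153 to 0.0651. In bulk cells, fewer cells of a type and less RNA per cell cannot be told apart.

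No change of SMED30005324 with time passed the test. Against intact worms the log2 fold change in mmp-1+ cells was 0.12 at 6 h (SE 0.29) and 0.15 at 48 h (SE 0.29), and in mmp-1- cells it was 0.26 at 6 h (SE 0.29) and 0.35 at 48 h (SE 0.29), with edgeR adjusted p of 0.881, 0.790, 0.665 and 0.481. The 6 h and 48 h contrasts share their intact libraries.

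**Figure D5:**
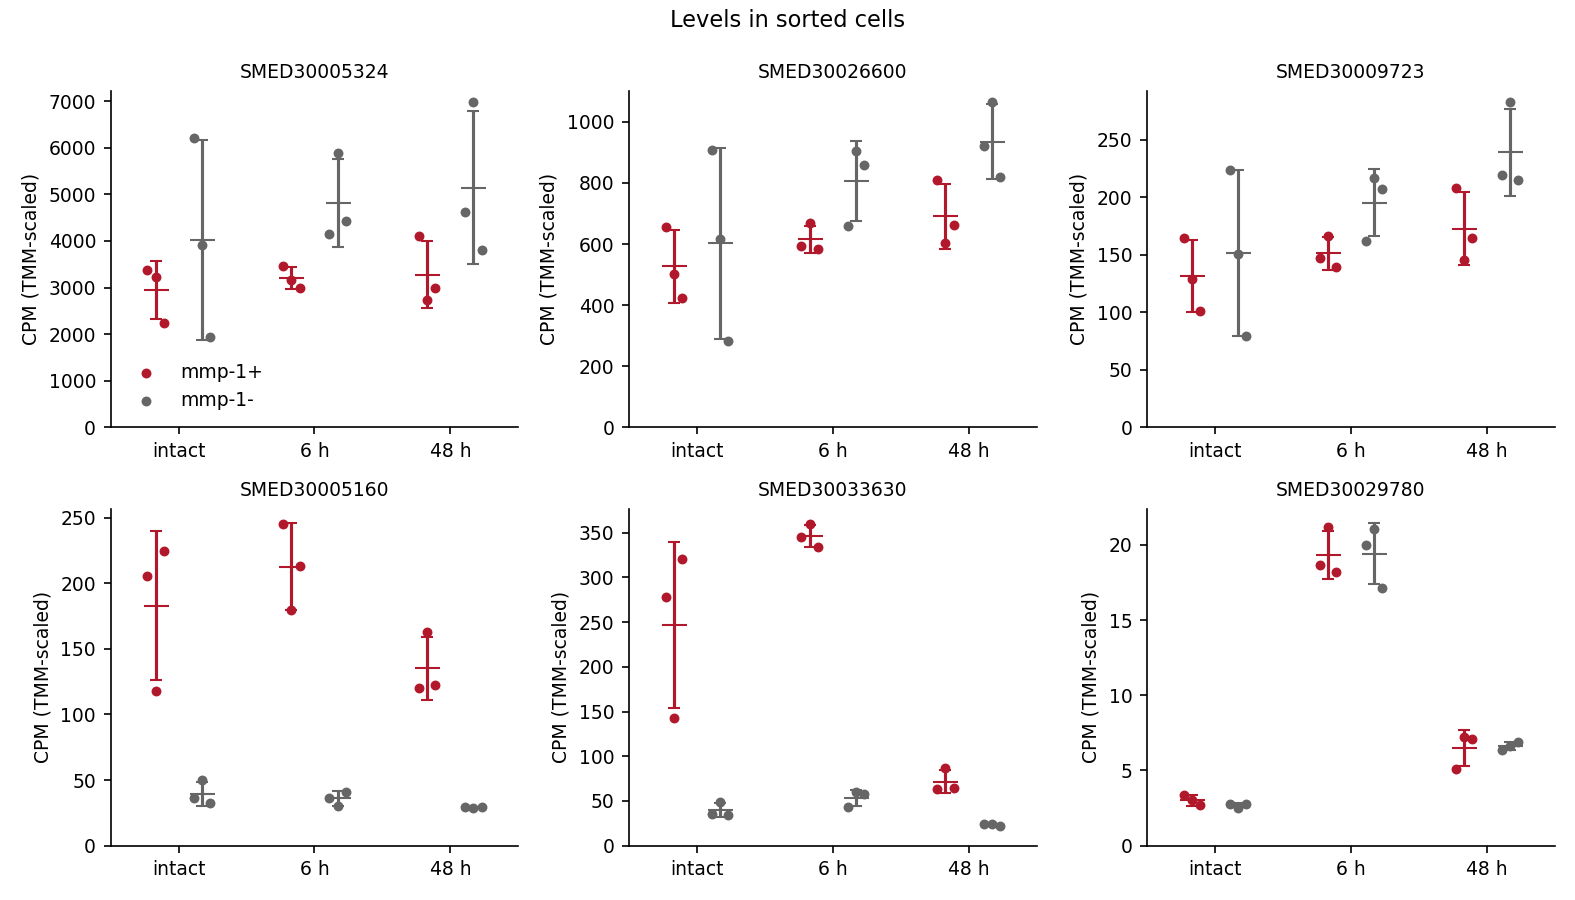
Levels in the 18 sorted libraries (TMM-scaled CPM, linear axes) of SMED30005324 and 5 named edge-shared genes by time, with 1 point per library, horizontal lines for means and bars for SD of 3 replicates, mmp-1+ in red and mmp-1- in grey. SMED30005324 spans 2233 to 4097 CPM in mmp-1+ and 1929 to 6978 CPM in mmp-1- libraries, while SMED30005160 shows no overlap between the populations.

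In edgeR's main fit, which left replicates unpaired, none of the 7 genes passed in the sort or in any of the 4 time contrasts. Their unadjusted edgeR p was under 0.05 for 2 genes in the sort, 0 and 1 in mmp-1+ cells at 6 h and 48 h, and 1 and 4 in mmp-1- cells at 6 h and 48 h. DESeq2 called none in any contrast, and limma with voom called 1 in mmp-1- cells at 6 h and 2 at 48 h. All 7 had negative log2 fold changes in mmp-1+ against mmp-1- cells, with a median of -0.22, and edgeR adjusted p between 0.1003 and 0.454. Scaling to total counts, which moved the median of all genes by -0.34, called all 7 lower. SMED30026600 and SMED30009723 were also called lower without mmp-1- intact replicate 3, with adjusted p of 0.00368 and 0.00621 by edgeR, and with the replicate block within time point, with 0.0405 and 0.0225 by edgeR. SMED30026600 had a median of 602 CPM over the 9 mmp-1+ libraries (423 to 808 CPM) and 860 CPM over the 9 mmp-1- libraries (281 to 1064 CPM), with a log2 fold change of -0.34 (SE 0.15, adjusted p = 0.127 by edgeR). In mmp-1- cells at 48 h against intact all 7 were positive, with a median log2 fold change of 0.57, and the lowest edgeR adjusted p was 0.0777. Without mmp-1- intact replicate 1, SMED30026600 and SMED30009723 were called higher there, with adjusted p of 0.00654 and 0.0045 by edgeR. Divided by the counts of SMED30005324 in the same library, 6 of the 7 varied between 1.52-fold and 2.39-fold over the 18 libraries, and SMED30027157 varied 49.1-fold. The same was not computed for genes outside the 7, so whether this range is particular to them was not tested.

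The wider list was split in the sort. Of the 147 edge-shared genes 146 could be tested, and 40 rose and 10 fell in mmp-1+ against mmp-1- cells (27.4% and 6.85%), where 11.0% and 8.04% of all 31435 genes did. Genes detected in the sections are more often called: of the 10928 of them that were tested, 23.7% were higher and 10.3% lower, so the share of edge-shared genes called higher was close to that of section genes in general. The sets were not matched in abundance: edge-shared genes had a median of 491 UMIs in all, against 994 UMIs over the 10941 genes compared in the sections. Without mmp-1- intact replicate 3, 19 fell. Among the 53 genes with intervals above 1, 16 rose and 1 fell. With total counts the split of the 146 turned to 24 higher and 89 lower, as the median of all genes moved.

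SMED30005160 was the strongest of those that rose with the sort. Its mmp-1+ replicates had 205, 118 and 225 CPM when intact, 246, 179 and 213 CPM after 6 h, and 120, 163 and 123 CPM after 48 h. Its mmp-1- replicates had 36.6, 49.8 and 32.3 CPM when intact, 36.2, 30.5 and 41.2 CPM after 6 h, and 29.4, 28.7 and 29.5 CPM after 48 h. The groups did not overlap, and the log2 fold change was 2.33 (SE 0.12, adjusted p = 1.7e-11 by edgeR). On the sections it was 2.23-fold to 3.31-fold higher on rich beads, with 24 and 14 UMIs there at 48 h and 11 and 10 UMIs at 6 h. SMED30033630 was similar in the sort, with a log2 fold change of 2.32 (SE 0.13, adjusted p = 3.94e-11 by edgeR), and rested on 6 and 6 UMIs on rich beads at 48 h and 3 and 2 UMIs at 6 h. Of the named genes that fell, SMED30011540 had a log2 fold change of -0.32 (SE 0.09, adjusted p = 0.0178 by edgeR), and no section's interval for it excluded 1. SMED30024219 had -0.53 (SE 0.18, adjusted p = 0.0451 by edgeR), a call lost without any 1 of 13 of the 18 libraries, with adjusted p up to 0.106 over the alternatives.

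Most edge-shared genes passed no test after amputation, and the shares called were mostly near those of section genes. In mmp-1+ cells at 6 h, 7 rose and 8 fell (4.79% and 5.48%), where 2.58% and 3.94% of all genes and 4.17% and 4.64% of section genes did. In mmp-1+ cells at 48 h, 18 rose and 28 fell (12.3% and 19.2%), where 7.13% and 10.6% of all genes and 13.0% and 16.0% of section genes did. In mmp-1- cells at 6 h, 15 rose and 6 fell (10.3% and 4.11%), where 4.56% and 4.99% of all genes and 7.50% and 5.88% of section genes did. In mmp-1- cells at 48 h, 22 rose and 23 fell (15.1% and 15.8%), where 7.74% and 9.85% of all genes and 14.3% and 14.1% of section genes did. With total counts, which moved the median of all genes by -0.11, the 6 h counts in mmp-1+ cells were 4 higher and 12 lower. At 6 h in mmp-1+ cells, 4 rose without mmp-1+ 6 h replicate 2, and 2 to 5 fell without mmp-1+ 6 h replicate 1 or 3 or mmp-1+ intact replicate 1 or 2. At 48 h the count that rose in mmp-1+ cells was 9 without mmp-1+ 48 h replicate 1 or mmp-1+ intact replicate 3, and 10 without mmp-1+ 48 h replicate 3 or mmp-1+ intact replicate 1. In mmp-1- cells at 48 h, the count that fell was 9 without mmp-1- intact replicate 2 and 14 without any 1 of the 3 mmp-1- 48 h replicates, and the count that rose was 13 or 14 without mmp-1- 48 h replicate 1 or 3 or mmp-1- intact replicate 3.

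SMED30029780 rose in all 4 time contrasts. In mmp-1+ cells it had 18.7, 21.2 and 18.2 CPM at 6 h and 5.11, 7.26 and 7.12 CPM at 48 h, against 3.39, 3.01 and 2.67 CPM in intact worms. In mmp-1- cells it had 20.01, 21.08 and 17.2 CPM at 6 h and 6.36, 6.62 and 6.93 CPM at 48 h, against 2.74, 2.52 and 2.79 CPM in intact worms. No group of tail cells overlapped its intact group. At 6 h the log2 fold change stood at 2.68 (SE 0.13, adjusted p = 1.96e-10 by edgeR) in mmp-1+ cells and at 2.85 (SE 0.13, adjusted p = 6.2e-11 by edgeR) in mmp-1- cells. At 48 h it stood at 1.10 (SE 0.13, adjusted p = 8.29e-06 by edgeR) in mmp-1+ cells and at 1.30 (SE 0.13, adjusted p = 9.73e-07 by edgeR) in mmp-1- cells. Its place among the edge-shared genes rests on 5 and 3 UMIs on rich beads at 48 h and 2 and 3 UMIs at 6 h, and no section's interval excluded 1.

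SMED30026267 fell in mmp-1+ cells, to 37.7, 44.8 and 43.9 CPM at 48 h, against 177, 109 and 243 CPM in intact worms, with a log2 fold change of -2.06 (SE 0.24, adjusted p = 4.39e-06 by edgeR). It was 4.04-fold to 22.6-fold higher on rich beads, with intervals above 1 in all 4 sections. SMED30033630 also fell, to 63.4, 87.0 and 64.8 CPM at 48 h, against 278, 143 and 320 CPM in intact worms, with a log2 fold change of -1.78 (SE 0.21, adjusted p = 7.43e-06 by edgeR). Among the genes named at 6 h in mmp-1+ cells, SMED30031469 fell with a log2 fold change of -1.53 (SE 0.22, adjusted p = 0.000119 by edgeR) and SMED30028217 with -0.90 (SE 0.22, adjusted p = 0.014 by edgeR), the second lost without mmp-1+ 6 h replicate 2 or 3 or mmp-1+ intact replicate 1 or 2. In mmp-1- cells SMED30017992 fell at 48 h with a log2 fold change of -0.91 (SE 0.13, adjusted p = 5.68e-05 by edgeR) and SMED30019962 at 6 h with -0.56 (SE 0.12, adjusted p = 0.00380 by edgeR).

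Other named genes had weaker support. SMED30024350 rose at 6 h in mmp-1- cells, with a log2 fold change of 1.24 (SE 0.20, adjusted p = 0.000349 by edgeR), and in mmp-1+ cells, with 0.72 (SE 0.21, adjusted p = 0.044 by edgeR), where the call was lost without any 1 of 9 libraries. SMED30024584 rose at 48 h in mmp-1+ cells with 0.84 (SE 0.27, adjusted p = 0.0379 by edgeR), lost without mmp-1+ 48 h replicate 1 or 3, without mmp-1+ intact replicate 1 or 3, and with DESeq2. SMED30008073 rose at 48 h in mmp-1- cells with 0.96 (SE 0.31, adjusted p = 0.0386 by edgeR), lost without mmp-1- 48 h replicate 2, without mmp-1- intact replicate 2 or 3, and with DESeq2. SMED30033245 fell at 6 h in mmp-1- cells with -0.68 (SE 0.17, adjusted p = 0.0121 by edgeR), lost without mmp-1- 6 h replicate 2 or mmp-1- intact replicate 2. SMED30025454 fell at 48 h in mmp-1- cells with -1.48 (SE 0.46, adjusted p = 0.0304 by edgeR), lost without mmp-1- 48 h replicate 1 or 2, without mmp-1- intact replicate 3, and with limma.

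Of the 243 edge-poor genes, 8 rose and 91 fell in mmp-1+ cells at 48 h (3.29% and 37.4%). Of all genes 7.13% and 10.6% did, and of section genes 13.0% and 16.0%. In mmp-1- cells at 48 h, 13 rose and 61 fell (5.35% and 25.1%). Of all genes 7.74% and 9.85% did, and of section genes 14.3% and 14.1%. At 6 h, 8 rose and 1 fell in mmp-1+ cells (3.29% and 0.412%). There 2.58% and 3.94% of all genes did, and 4.17% and 4.64% of section genes. In mmp-1- cells at 6 h, 22 rose and 1 fell (9.05% and 0.412%). There 4.56% and 4.99% of all genes did, and 7.50% and 5.88% of section genes. The 48 h count that fell in mmp-1+ cells was 58 without mmp-1+ 48 h replicate 3 and also without mmp-1+ intact replicate 2. In the sort, 28 of the 243 rose and 9 fell (11.5% and 3.70%). Of all genes 11.0% and 8.04% did, and of section genes 23.7% and 10.3%. Whether these shares differ from those of section genes was not tested. The sets also differ in abundance, with a median of 4880 UMIs in all for edge-poor genes and 994 UMIs over the 10941 genes compared in the sections.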

How the data were processed

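The section files hold deposited UMI counts per gene and bead, with bead positions in a unit that no source used here states. The sorted-cell table holds the authors' whole-number read counts per gene. The submitters' processing notes name STAR 2.7.3a, RSEM, bcl2fastq 2.20 and Cell Ranger, with no role stated. The genome build was not named in those sources. Sorted libraries were made without strand information, with 10 and 12 PCR cycles and no UMIs, per the labels' protocols, so counts are not independent molecules. The 2 single-cell samples were not analysed here.

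For the sections, the 2 sides were summed per section and scaled to CPM. Ratios carry exact (Clopper-Pearson) 95% intervals, which cover counting error only. Tissue was the beads with 50 or more UMIs where the mean of the 20 nearest positions passed Otsu's limit. The sorted counts were tested with edgeR 4.0.16 (quasi-likelihood, TMM, 18 libraries in 6 groups, Benjamini-Hochberg over 31435 of 36035 genes, limit 0.05). SE is the absolute log2 fold change over the square root of F. DESeq2 1.42.0 and limma 3.58.1 (voom) were alternatives, and the scripts were tested on simulated data.

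Named genes were, in each contrast, the 2 largest changes in each direction among called edge-shared genes, and in the sections the 2 with the highest lowest ratio and the 2 edge-poor genes with the lowest highest ratio. The genes, lists and tests were chosen with earlier results of these data known. Same-numbered replicates of the 2 sorted populations at 1 time correlated from -0.00297 to 0.281 (median 0.059), with 3 of 9 pairs over 0.1. Different-numbered ones at 1 time correlated from -0.241 to 0.063 (median -0.035), with 0 of 18 pairs over 0.1. The labels do not state whether same-numbered libraries share worms. The main fit left them unpaired, and fits with a replicate block are given as alternatives.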

Additional observations from a re-analysis of the deposited data

How the results depend on the processing

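Of the alternatives tried, 319 values that answer a comparison stayed within 1.5 times their value or within their spread and 63 moved. The edge-shared count (147), which is also the count that repeats between blocks, was 224 with rich beads from 5 UMIs, 90 with beads with 0 weighted to the edge distance, where the UMI minimum applied to weighted sums, and 53 with TMM scaling. It was 16602, 729 and 72 with genes from 1, 50 and 500 UMIs, so the weakest genes enter through the added 0.5 UMI, and 96 with none added. It was 502 at a ratio limit of 1.5, 38 at 3, and 174 to 245 without 1 section. Chosen after the data were seen, intervals above 1 left 53 genes, 61 when required in both 6 h sections for the repeat, and 3 expected UMIs left 22. The edge-poor count (243) was 472 with TMM, 482 and 69 at limits of 1.5 and 3, 439 with none added, 153 by intervals, and 307 to 366 without 1 section. The near and far count (45) was 46 to 61 without 1 section.

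The median edge distance of rich beads minus that of beads with 0 was -0.547, -0.329, -0.744 and -0.296 spacings with an outline from the 10 nearest positions and -4.08, -3.10, -2.94 and -2.91 from the 40 nearest, for 48 h sections 1 and 2 and then 6 h sections 1 and 2. The highest ratio of SMED30013245 was 1.53 with rich beads from 2 UMIs.

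In the sorted cells, total counts gave 24 higher and 89 lower edge-shared genes in the sort, and 4 higher at 6 h in mmp-1+ cells. Without 1 library the counts ranged from 37 to 44 higher and 7 to 19 lower in the sort, the 19 without mmp-1- intact replicate 3. In mmp-1+ cells they were 4 to 8 higher and 2 to 11 lower at 6 h, and 9 to 19 higher and 20 to 30 lower at 48 h. For mmp-1- cells the ranges were 10 to 19 higher and 4 to 8 lower at 6 h, and 13 to 22 higher and 9 to 26 lower at 48 h. Edge-poor genes lower at 48 h ranged from 58 to 105 in mmp-1+ and 44 to 86 in mmp-1- cells. The log2 fold change of SMED30005324, never called with time, was -0.0046 at 6 h in mmp-1+ cells with total counts. Without 1 library its lowest and highest values in mmp-1+ cells were -0.041 and 0.23 at 6 h and -0.039 and 0.27 at 48 h (-0.0095 without mmp-1+ intact replicate 3), and in mmp-1- cells -0.072 and 0.72 at 6 h. Causes were not tested beyond those an alternative's construction shows.

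Whether same-numbered libraries share worms was not settled by their correlations. With the replicate block the sort gave 41 higher and 8 lower edge-shared genes, and with the replicate block within time point 45 higher and 20 lower. At 48 h against intact the replicate block gave 13 higher and 29 lower for the mmp-1+ population, and for mmp-1- it gave 19 higher and 23 lower. The calls of SMED30024219 in the sort, SMED30024584 at 48 h in mmp-1+ cells and SMED30008073 at 48 h in mmp-1- cells were lost with the replicate block. The replicate block within time point added calls of SMED30026600 and SMED30009723 in the sort, with adjusted p of 0.0405 and 0.0225 by edgeR. The replicate block also added the call of SMED30009723 at 48 h in mmp-1- cells, with adjusted p = 0.0397 by edgeR.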
